A study of Gasterosteus aculeatus with 242 samples.

Results

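The sexes were compared in the brains of father-reared threespine sticklebacks (Gasterosteus aculeatus) that had met an open field and a model predator. The fish are all those labelled Day 10 and open-field, 61 of the 242 fish of the series: 26 males and 35 females. Every one of them was raised by its wild-caught father and was 6 to 8 months old and not yet mature. Each was placed alone in a pool, met a model sculpin, a predatory fish, after 10 minutes, and was killed 60 minutes after that simulated attack. The submitters sexed the fish with a DNA marker. RNA came from the left or the right side of the brain and was read by 3′ tag sequencing, which counts transcript ends, so that a count does not grow with the length of a gene. The 26 males gave 14 left and 12 right sides, and the 35 females gave 16 left and 19 right sides. The fish fell into 8 families, each with both sexes, and family 27 held 1 male and 5 females. The other fish used for comparison were father-reared baseline siblings from home tanks (31 males, 26 females), hand-reared open-field fish (28 males, of which 27 had usable depth, and 32 females) and hand-reared baseline fish (39 males, 25 females). Hand-reared fish, labelled Day 0, grew up without the father. The open-field groups and the baseline groups differ in several things at once: handling, the pool, the model and the wait after it.

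Sticklebacks have X and Y sex chromosomes, and males carry the Y. In fish, as in other vertebrates, sex differences in the brain are known to come both from genes on the sex chromosomes and from sex steroids, and the teleost brain is known for a high activity of aromatase, the enzyme that makes oestrogens from androgens. In this species the father alone tends the nest and the fry. None of the 22456 gene identifiers of the count table could be paired with a symbol or a chromosome here. Genes are therefore given by identifier and without a role, and markers of brain cell types or of other tissue could not be checked. A side of a brain holds many cell types, and fewer cells of a type cannot be told apart from less RNA per cell.

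Libraries of the sexes were alike in depth. Males had 829989 to 1357118 counts (median 1002085) and females 737408 to 1529047 (median 1047205), with no difference beyond the spread between fish (permutation test, two-sided, 100000 resamples, p = 0.577). Genes with a count numbered 13624.5 in the median male and 13629 in the median female. The sexes were spread unevenly over the 3 plates read from the library names, with 7, 15 and 4 males against 13, 11 and 11 females. Plate, brain side and family were terms of the fits reported here, apart from the alternatives that leave a term out. Fits on a single plate or side lack that term. A fit on counts summed per family and sex had only family and sex as terms. Levels and differences given for single families, and scores of single fish, are plain means without these terms. Libraries of family 31 stood somewhat apart: their median Spearman correlation with the other libraries was 0.896 to 0.918, against 0.915 to 0.933 for libraries of the other families.

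Among called genes, those higher in females were more numerous and further apart between the sexes than those higher in males. Of 7098 genes tested, 335 (4.72%) were called at an adjusted p under 0.05, 1.52% of the tested genes with higher levels in males and 3.20% with higher levels in females (edgeR's quasi-likelihood test with Benjamini-Hochberg adjustment). The median log2 difference, male minus female, was 0.34 among male-higher calls and -0.91 among female-higher calls, and 0.0099 over all tested genes. Of all tested genes, called or not, 54.2% were higher in males, so the excess of female-higher genes is one of calls. Of the female-higher calls, 85.5% lay below -0.5. Of the male-higher calls, 46 (42.6%) lay at or under 0.3 and 12 above 1. Within single plates, male-higher calls numbered 29, 32 and 1 in plates 1, 2 and 3. All 335 genes kept their direction in plates 1 and 2, but 293 of them in plate 3, which held 4 males. The calls were made on these same fish, so the kept directions describe evenness between plates only.

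The strongest call in either direction was ENSGACG00000006281, higher in males. Its lowest, median and highest levels were 59.1, 132.9 and 209.2 CPM (a gene's counts scaled to a common library size) in males, against 0.980, 6.15 and 15.6 CPM in females. The lowest male thus lay well above the highest female, and every female had some counts of the gene. The mean was 132.7 ± 31.0 CPM over the males (SD, n = 26) and 6.93 ± 2.77 CPM over the females (SD, n = 35), a log2 difference of 4.25 (SE 0.099, edgeR adjusted p = 1.4e-40). Males of family 26 were the lowest at a mean of 78.6 CPM, while the females of that family had 5.81 CPM. The family means of males reached 157.1 CPM in family 07, where females had 6.68 CPM.

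ENSGACG00000012099, also higher in males, differed less and varied little between fish. It had 155.01, 194.4 and 253.6 CPM in males (lowest, median, highest), against 52.5, 73.8 and 107.9 CPM in females. Again no male fell into the range of the females. Its log2 difference was 1.39 (SE 0.046, edgeR adjusted p = 1.0e-32). Over the families it was lowest in family 31, at 1.15 on the log2 scale, and highest in family 35, at 1.55.

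The most significant genes higher in females were abundant ones. ENSGACG00000006703 had 844, 1057 and 1287 CPM in males (lowest, median, highest), against 1630, 1872 and 2130 CPM in females. Its log2 difference was -0.83 (SE 0.029, edgeR adjusted p = 2.4e-31). The gap between the sexes, from the highest male to the lowest female, held no fish. ENSGACG00000006058 had 339, 396 and 534 CPM in males, against 626, 782 and 907 CPM in females, again without overlap. Its log2 difference was -0.95 (SE 0.035, edgeR adjusted p = 1.6e-30). Family 31 had the difference nearest to 0 in both genes, at -0.72 and -0.81 on the log2 scale, and the widest were -0.89 for ENSGACG00000006703 in family 27 and -1.08 for ENSGACG00000006058 in family 19. All 4 of these genes had the same direction in 8 of 8 families.

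**Figure D1:**
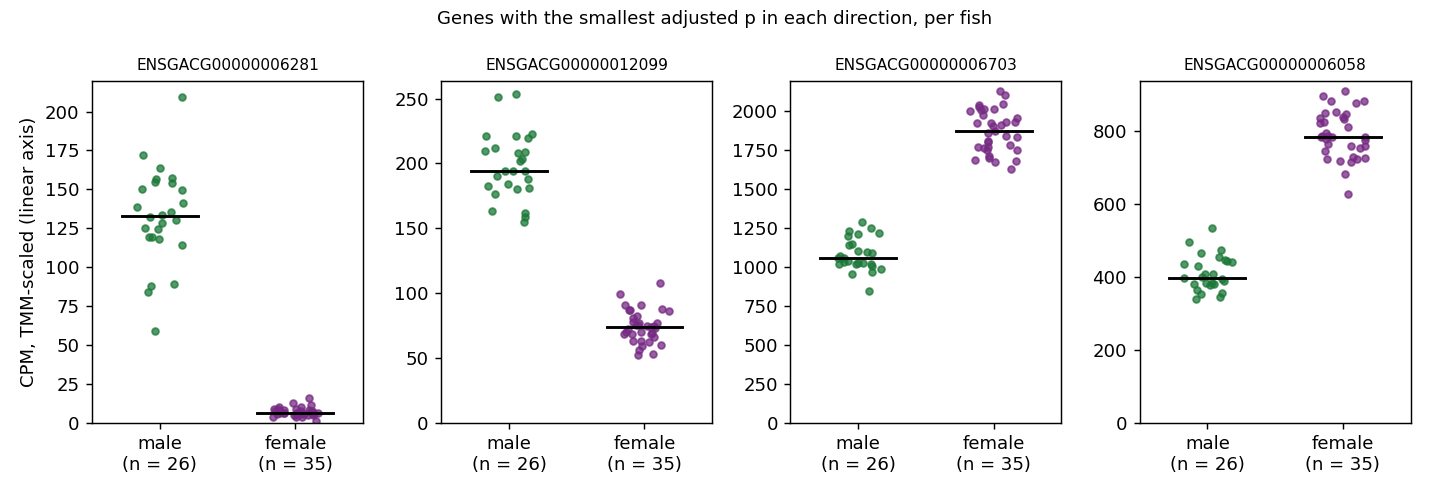
Levels of the 4 genes with the smallest adjusted p, 2 in each direction, in single fish (CPM, linear axis), males on the left and females on the right of each panel; each point is a fish and bars are medians. In each gene the highest fish of one sex lies below the lowest of the other, as for ENSGACG00000006281 with 59.1 CPM in the lowest male and 15.6 CPM in the highest female.

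Complete separation of single fish was rare and leaned to females. In 6 genes (0.0845% of those tested) the lowest male was above the highest female, and in 28 genes (0.394%) the highest male was below the lowest female. The 6 genes differed by at least 1.35 on the log2 scale. The 28 genes differed by less, between -1.14 and -0.60, and each had a mean level of at least 60.4 CPM. Of the 28, 21 lay between -1.1 and -0.9.

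Female-higher differences gathered near -1 on the log2 scale. In the range from -1.1 to -0.9 lay 94 genes, 41.4% of the female-higher calls, and these were all the tested genes in that range. In the mirror range from 0.9 to 1.1, 12 genes were tested and 5 called. Below -1.1 there were 26 calls, with the lowest at -1.48, and between -0.3 and 0 there were 13. The standard error of a gene in the range near -1 was 0.083 in the median. The same 94 genes, chosen in these 61 fish, had a median of -0.99 in father-reared fish at baseline, -0.99 in hand-reared fish after the open field and -0.94 in hand-reared fish at baseline, each fitted alone on its own fish. In plates 1, 2 and 3 of the 61 fish their medians were -0.99, -1.01 and -0.91. These plates hold the fish in which the genes were chosen, so their medians are no independent support.

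**Figure D2:**
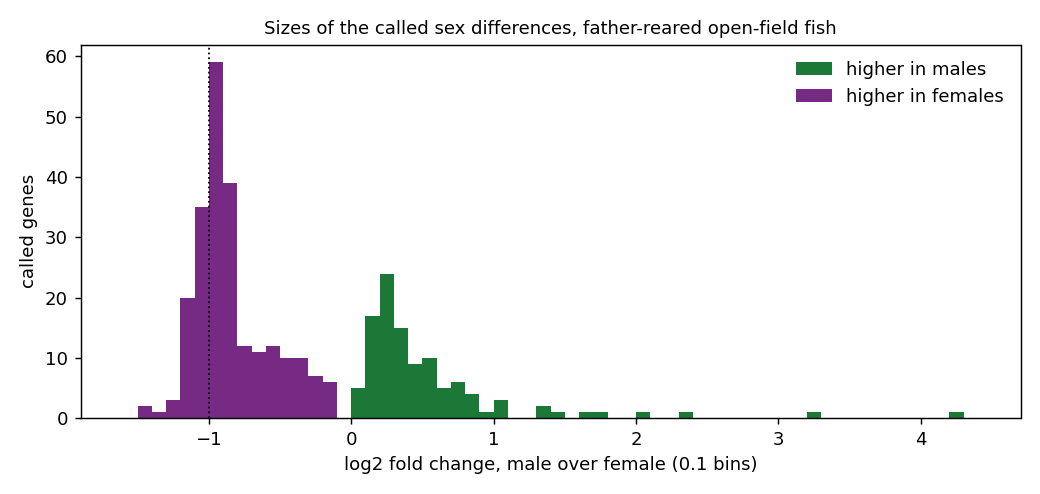
Number of called genes by log2 difference, male over female, in bins of 0.1, for the genes higher in males (1.52% of those tested) and higher in females (3.20%); the dotted line marks -1. Female-higher calls pile up beside the line, with 94 between -1.1 and -0.9, whereas male-higher calls are most frequent at or under 0.3.

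The called genes covered a wide range of levels. On the CPM scale of transcript ends, the median level was 53.9 CPM in male-higher calls, 39.7 CPM in female-higher calls, 42.2 CPM in those near -1 and 41.6 CPM in all tested genes. Male-higher calls at or under 0.3 had a median of 213.8 CPM, and those above 0.3 had 23.2 CPM. A small difference passes the test only where its standard error is small, so the levels of calls split by size are set in part by the calling. As a share of the scaled counts of the tested genes, male-higher calls took 3.44% in males and 3.00% in females (medians), and the ranges overlapped. Female-higher calls took 2.24% in males (2.10% to 2.36%) and 3.40% in females (3.10% to 3.59%), with no overlap. These shares describe genes chosen for the difference and are no test of it.

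The direction of the calls was shared by most families. Of the female-higher calls, 89.4% were higher in females in 8 of 8 families, and 17 genes were so in 7, 6 in 6 and 1 in 5. Of the male-higher calls, 68 were higher in males in 8 families, 31 in 7, 8 in 6 and 1 in 5. The genes near -1 had family medians between -1.04 in family 26 and -0.92 in family 31. The male-higher calls had family medians between 0.30 in family 20 and 0.36 in family 31. Since the calls were made on these same families, the counts describe evenness between families only. A test of the 7 sex-by-family terms called 0 of 7098 genes (0%), while 6.00% had an unadjusted p under 0.05, with a smallest adjusted p of 0.200 (edgeR). DESeq2 called 1 gene for sex by family, ENSGACG00000013121 (adjusted p = 0.013, against 0.354 by edgeR), which is named after its values were seen. In family 26 its mean was 73.98 CPM for males and 23.5 CPM for females, but in family 20 it was 46.6 CPM for males and 93.1 CPM for females.

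The sex difference was not shown to differ between brain sides. The sex-by-side term called 0 genes (0%) by edgeR and 0 by DESeq2, with 5.24% of genes at an unadjusted p under 0.05 by edgeR and a smallest adjusted p of 0.344. The median standard error of that term was 0.182 on the log2 scale, so that small differences between sides were not detectable.

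Lists of sex-biased genes taken from the other fish carried over to these 61. Each of the other 3 groups was fitted alone on the same 7098 genes. Male-higher and female-higher calls made up 2.82% and 3.40% of the tested genes in father-reared baseline siblings, 1.70% and 3.03% in hand-reared fish after the open field, and 1.51% and 3.17% in hand-reared fish at baseline. In all 3 of these groups, 53 genes (0.747%) were called higher in males and 2.78% of the tested genes higher in females. Here, all 53 were higher in males, with a median of 0.49, and 39 of them were called. Every gene of the female-higher list was higher in females, with a median of -0.92, and all but 1 were called. The exception differed by -0.08 (edgeR adjusted p = 0.395). Of this list, 92 genes lay between -1.1 and -0.9 in these fish.

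The female-higher list separated the sexes of single fish completely, with little spread within each sex. A fish's mean log2 CPM over that list, set relative to the females, was -0.94, -0.88 and -0.83 in males (lowest, median, highest) and -0.052, -0.0037 and 0.049 in females. The empty range between the sexes was thus wider than the range within either sex. Over the 53 genes of the male-higher list the values were 0.42, 0.81 and 1.36 in males and -0.43, -0.072 and 0.61 in females. Here the sexes overlapped, with 7 males inside the range of the females and 3 females inside the range of the males. The 3 females were those of family 31, at 0.48 to 0.61, and the 5 males of that family were at 0.99 to 1.36. Without family 31, males ran from 0.42 to 1.11 and females from -0.43 to 0.37, with no overlap. The libraries of family 31 are those that stood apart, and the part this had in its values was not tested.

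**Figure D3:**
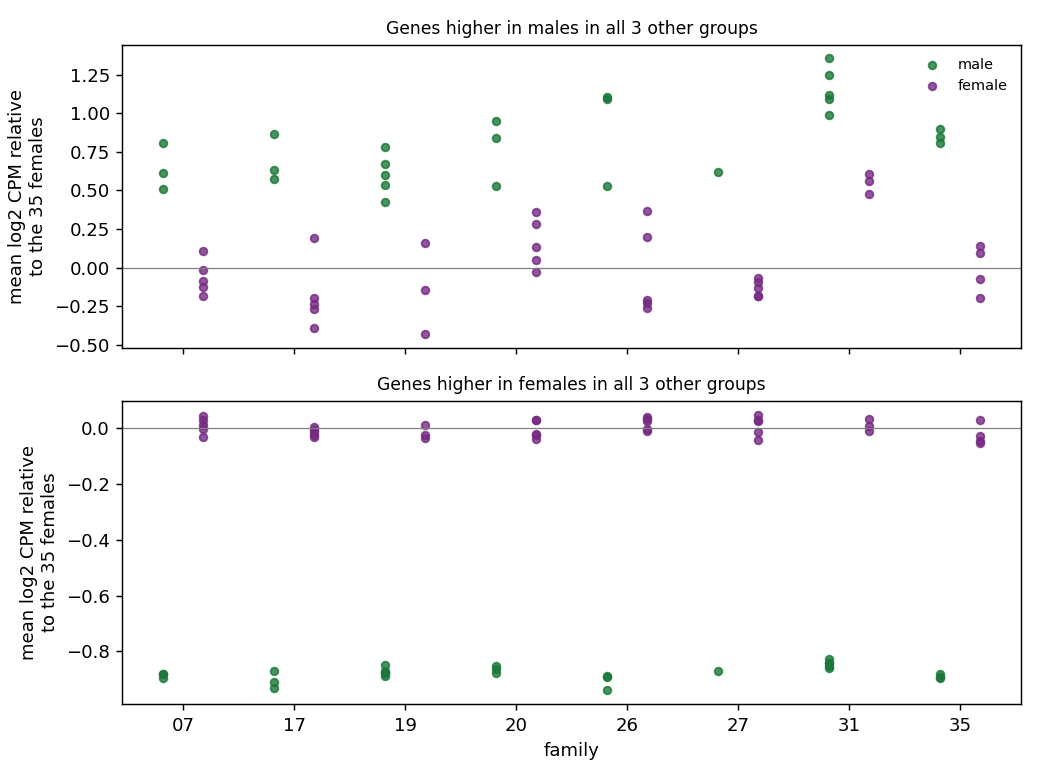
Mean log2 CPM of each fish, relative to the mean of the 35 females, over 53 genes called higher in males (above) and over those called higher in females (below, 2.78% of the tested genes) in all 3 other groups, by family with males left of females. For the female-higher list males lie between -0.94 and -0.83 and females between -0.052 and 0.049, while for the male-higher list both sexes of family 31 lie high, its females at 0.48 to 0.61.

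Female-higher calls were mostly made in the other fish too. Male-higher calls were made there in part, though most of them kept their direction in each group. Of the female-higher calls here, 92.1% were also called in father-reared baseline fish, which is 86.7% of the calls there. The shared calls were 90.7% of these and 95.8% of those for hand-reared open-field fish, and 90.3% of these and 91.1% of those for hand-reared baseline fish. Of the male-higher calls, 62 were shared with father-reared baseline fish (57.4% of these and 31.0% of those), 52 with hand-reared open-field fish (48.1% and 42.98%) and 46 with hand-reared baseline fish (42.6% and 42.99%). The male-higher calls, with a median of 0.34 here, had medians of 0.22, 0.22 and 0.19 in these groups, in the same order. A shared call has to pass the test in both groups, which a small difference can miss. The counts of shared calls thus do not show that the other male-higher differences were absent there. No gene called in both had opposite directions. Across all 7098 genes the log2 differences correlated with those of the 3 groups, in the same order, with a Pearson r of 0.727, 0.778 and 0.763. Without the 335 calls of these fish r was 0.316, 0.440 and 0.363, and genes called only in another group stayed in. These values are a description over genes that are not independent replicates. Father-reared baseline fish came from the same 8 families.

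Calls made in these fish and in no other group were small. They were 41 male-higher genes, with a median of 0.26, and 12 female-higher genes, with a median of -0.42. Of the 41, 37 were also higher in males in father-reared baseline, 29 in hand-reared open-field and 34 in hand-reared baseline fish, with medians of 0.094, 0.055 and 0.053. Of the 12, 11, 10 and 10 were also higher in females in those groups, with medians of -0.16, -0.12 and -0.095. The difference from the mean of the other groups passed in 0 of them, with a smallest adjusted p of 0.638 among the 41 and 0.971 among the 12 (edgeR). At an unadjusted p under 0.05 there were 17 of the 41 and 7 of the 12, against 4.65% of all tested genes, but these genes were chosen for being called here and in no other group, so these counts are no test. No gene was therefore shown to be sex-biased in these fish alone.

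The differences between groups were also tested for every gene, in 1 fit over all fish of the series but the shallow library. Against father-reared baseline fish 0 genes (0%) were called, with 350 (4.93%) at an unadjusted p under 0.05. Against hand-reared open-field fish 0 genes (0%) were called, with 247 (3.48%) at an unadjusted p under 0.05. Against the mean of the 3 other groups 0 genes (0%) were called, with 330 (4.65%) at an unadjusted p under 0.05. All these counts are from edgeR's test, and DESeq2 also called 0 in each. The median standard error of a difference was 0.121, 0.117 and 0.097 on the log2 scale. The widest sex difference was of like size in each group: ENSGACG00000006281 differed by 4.56 (SE 0.13) in father-reared baseline, 4.34 (SE 0.098) in hand-reared open-field and 4.52 (SE 0.096) in hand-reared baseline fish. The fitted difference of its value here from father-reared baseline fish was -0.29 (SE 0.17, edgeR adjusted p = 0.959).

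Genes that respond to the open field were next described by sex. The list came from hand-reared fish, where 26 genes (0.366%) were higher after the open field than at baseline and 0 were lower, by 0.15 to 1.35 on the log2 scale (edgeR, males and females together). In the 61 father-reared open-field fish, 23 of the 26 were lower in males than in females. Of all tested genes, 45.8% were lower in males. Counts over the 26 are a description, as genes of a list are not independent replicates. The median difference of the 26 was -0.13, with a range from -0.60 to 0.092. Leaving out each family in turn, the median lay between -0.15 without family 35 and -0.076 without family 17, and 21 to 24 of the genes were lower in males. Of the 26, 3 passed the test, all lower in males, where 3.20% of all tested genes were called lower in males. An unadjusted p under 0.05 was found for 7 of the 26, a larger share than the 14.3% of all tested genes. The other groups gave other counts for the same genes: 9 of 26 were lower in males in father-reared baseline siblings (median 0.064), 11 in hand-reared open-field fish (median 0.011) and 13 in hand-reared baseline fish (median -0.0069). The list was chosen in these hand-reared fish with the sexes together, which favours genes that rise alike in both sexes. The hand-reared values are thus not independent of the choice, unlike those of the father-reared siblings. The difference of the sex effect from father-reared baseline fish was negative in 24 of the 26, with a median of -0.22 against -0.0028 over all genes. Of the 26, 4 had an unadjusted p under 0.05 for that difference, a larger share than the 4.93% of all tested genes. After adjustment 0 passed (smallest adjusted p 0.959, edgeR), so a sex difference in the response was not shown for any gene. Against hand-reared open-field fish, which helped to choose the list, the difference was negative in 23 of the 26, with a median of -0.19. There 1 of the 26 had an unadjusted p under 0.05, against 3.48% of all tested genes, and 0 passed (smallest adjusted p 0.9997, edgeR).

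Levels over the 26 genes overlapped widely between the sexes. The mean log2(CPM + 1) over the genes was 4.97, 5.52 and 5.93 in open-field males (lowest, median, highest), against 5.25, 5.67 and 5.99 in open-field females. At baseline it was 4.53, 4.85 and 5.73 in males, against 4.34, 4.82 and 5.55 in females. The ranges of the sexes thus shared most of their width under both conditions. Open-field males were lower than open-field females in 7 of 8 families, all but family 35, and baseline males were lower in 3 of 8. The rise from baseline to open field averaged 0.613 ± 0.140 in males and 0.809 ± 0.201 in females (SD over 8 families). It was larger in females in 6 of 8 families. Averaged over single fish instead, levels went from 4.89 to 5.53 in males and from 4.92 to 5.65 in females. The excess of the female rise was smaller this way. These are plain means with no term for plate or side, and some rest on few fish. Family 27 had 1 open-field male and 1 baseline female. The largest rise in females, 1.195 in family 19, rests on 2 baseline females. The count of genes lower in males varied with plate and side. In fish of plate 1 alone 19 of the 26 genes were lower in males, and in plate 2 alone 19, but in plate 3, with 4 males and 11 females, 9 were, and the median there was 0.10. By plain means of the sexes in a plate, with no term for family or side, 20, 18 and 15 of the 26 were lower in males in plates 1, 2 and 3, so that the majority in plate 3 turned with the fit. On left sides alone 17 genes were lower in males (median -0.068), and on right sides alone 22 (median -0.22). What part plate and side had in the count was not tested.

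**Figure D4:**
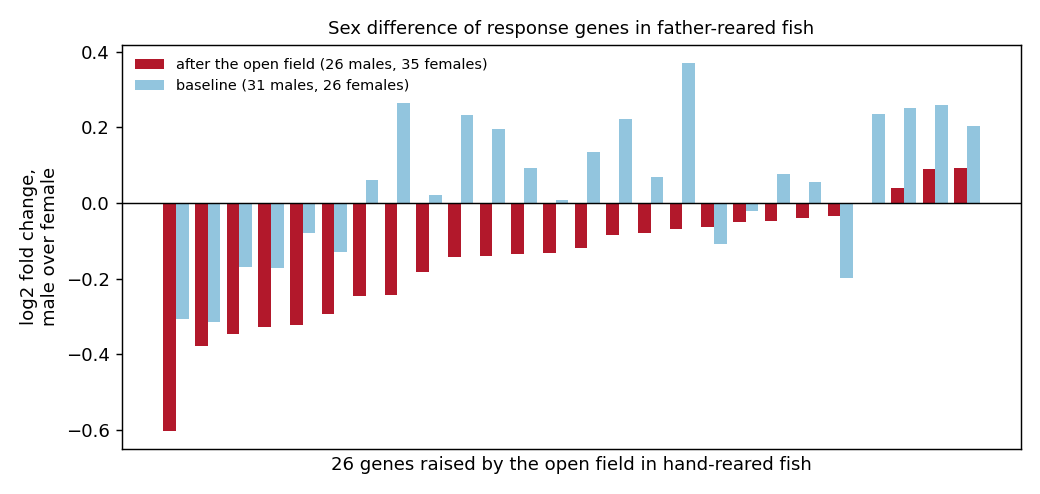
Log2 difference, male over female, of the 26 genes that were higher after the open field in hand-reared fish, in father-reared open-field fish (dark bars) and father-reared baseline fish (light bars), ordered by the value after the open field. After the open field 23 of the bars lie below 0, and at baseline 9 do.

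Of the 3 response genes that passed, a pair is named here after their values were seen. ENSGACG00000006701 had 68.2, 98.3 and 129.8 CPM in males (lowest, median, highest), against 103.7, 131.5 and 165.5 CPM in females, and the sexes overlapped. Its log2 difference was -0.38 (SE 0.055, edgeR adjusted p = 2.3e-07), lower in males in 8 of 8 families. It was also lower in males in father-reared baseline siblings (-0.31), hand-reared open-field fish (-0.26) and hand-reared baseline fish (-0.28), and its difference from their mean did not pass (edgeR adjusted p = 0.999). ENSGACG00000001466 had 13.6, 35.5 and 105.4 CPM in males, against 18.9, 53.2 and 121.6 CPM in females, with a wide overlap. Its log2 difference was -0.60 (SE 0.17, edgeR adjusted p = 0.024), lower in males in 7 of 8 families. In the other groups it was -0.31 (SE 0.26), -0.084 (SE 0.15) and 0.68 (SE 0.27), in the same order, and its difference from their mean did not pass (edgeR adjusted p = 0.971). The remaining gene differed by -0.29 (SE 0.088, edgeR adjusted p = 0.035) and was lower in males in 6 of 8 families. Its differences in the other groups were -0.13 (SE 0.11), 0.058 (SE 0.083) and 0.14 (SE 0.10), in the same order, so that both hand-reared groups had the opposite sign, and its difference from their mean did not pass (edgeR adjusted p = 0.971).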

How the data were processed

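Brain sides of 242 fish were read by 3′ tag sequencing on 6 lanes with reads of 100 nt, per the labels' protocols. The deposited values are raw counts by gene, for each library and lane (1452 columns), all matched to a fish by library name. Tools listed, per the submitters' processing notes, were STAR 2.2.3a, HTSeq 0.9.1 and FastQC 0.11.8. Genome build, duplicate removal and strand setting are not given in the sources at hand, so genes that overlap or have near-identical copies are uncertain, and counting error may not be that of single molecules. No pair of the 920 same-sex library pairs compared was alike enough to be a copy (lowest chi-square 2.53 per degree of freedom).

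Lanes were summed to 1 replicate per fish. Genes were kept with filterByExpr (minimum count 10, with sex as the group), which left 7098 of 19821 with a count. A gene could thus be kept through the sex in which it was high, and counts of calls by direction rest on this filter. The main test was edgeR 4.0.16 (R 4.3.3), quasi-likelihood F-test, with TMM scaling, on the 61 fish with family (leading number of the fish code), plate (leading digit of the library name), brain side and sex as terms. Standard errors were taken as the size of a log2 fold change over the root of its F. Other groups were fitted alone on the same genes, and differences between groups in 1 fit over all usable fish. A library with under 500000 counts, of a hand-reared open-field male, was left out. CPM values are TMM-scaled and were computed here from the counts of the 7098 tested genes, with a prior of 1 in logs. Those of genes below the filter are over all counts. The scaling of CPM for the sexes differed little, with a median TMM factor of 0.995 in males and 1.001 in females. Over single libraries the factors ran from 0.936 to 1.06. The open-field list was adjusted for family, plate, side and sex. Families may be half-sibs per the design text, and which families share a parent is not given in the labels used here. P-values treat fish of a family as independent given the family term.

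Named genes are the 2 in each direction with the smallest adjusted p, and others are said to be chosen later. The group of fish, the range from -1.1 to -0.9 and the lists were chosen with earlier results of these data known. Lists of pathway and cell type genes could not be tested, since 0 of 22456 identifiers matched the 52177 genes of the RefSeq table at hand. Alternatives were RLE size factors, DESeq2 1.42.0, limma-voom (limma 3.58.1), no filter, each term left out, sums per family and sex, single sides, single plates, each family left out and a fit over all fish. The main sex test was tried on simulated counts with known differences, drawn from a model fitted to these fish. The other tests were not tried in this way.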

Additional observations from a re-analysis of the deposited data

Results flagged for a closer look

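Values of the 8 families were screened for a family far from the others in 14 sets, of which chance flags about 1 in 20. The median log2 difference, male minus female, of the 94 genes between -1.1 and -0.9 was -1.04 in family 26, with the next family at -0.97. The mean level of the male-higher list from other fish was 0.547 log2 units in the females of family 31, relative to all 35 females, with the next family at 0.160.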

How the results depend on the processing

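All 335 calls kept their direction with RLE size factors, DESeq2, limma-voom, no filter, each term left out, sums per family and sex, single sides, plates 1 and 2 alone, each family left out and the fit over all fish; in plate 3 alone 293 did. These fits reuse the fish on which the calls were made, so a kept direction is no independent support. Not all stayed called. With RLE size factors all 335 did, with DESeq2 329, with limma-voom 325, without the family block 314 and with no filter 301. Sums per family and sex kept 287, and the fewest kept with a family left out were 272, without family 31. Fewer still stayed called on single sides and single plates, down to 2 in plate 3. The counts moved most in parts of the fish, where fewer fish were tested. Male-higher calls numbered 32 on left and 51 on right sides, and 29, 32 and 1 in plates 1, 2 and 3. Female-higher calls in plate 3 numbered 1, and those between -1.1 and -0.9 were 57 in plate 1 and 0 in plate 3. Plate 3 held 4 males, and 392 genes there had an unadjusted p under 0.05. In plate 3, 3 of the 4 named genes lost the call: ENSGACG00000012099 (1.31, edgeR adjusted p = 0.333), ENSGACG00000006703 (-0.88, adjusted p = 0.105) and ENSGACG00000006058 (-0.55, adjusted p = 0.759). Leaving out each family gave 73 to 100 male-higher calls and kept the counts of female-higher calls and of those near -1 within 1.5 times, and the lowest male-higher count was without family 31. Sex by family gave 1 call with DESeq2 and 2 with no filter, against 0. ENSGACG00000013121 was called in both settings, and ENSGACG00000009046 with no filter only. Both genes were also tested in the main fit. The cause was not tested. Over 12723 genes below the filter, 32 male-higher and 81 female-higher calls were made in the fit with no filter. Depth limits what can be seen of small differences in low genes.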

Other observations

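Below the filter on low counts, 4 genes had at least 10 counts summed over the 26 males and 0 in the 35 females, and 2 had at least 10 in females and 0 in males. The genes are low ones, and a count of 0 covers counting error only. The most abundant, ENSGACG00000013612, is named after its values were seen. It had 83 counts in 25 of the 26 males (3.11 CPM over all male counts), against 0 counts in females. The 0 allows up to 0.0813 CPM (3 counts over all females). The male value was 38.2 times that limit, with the counting error of the male counts left out. In the fish of the other 3 groups it had 329 counts in 92 of 97 males and 0 counts in 83 females. The other 3 genes seen in males alone here were found in females elsewhere. A gene with 15 counts from 3 males here had 7 counts in 97 males and 21 counts in 83 females of the other groups. A gene with 19 counts from 15 males here was counted in 47 of those 97 males and 7 of those 83 females, and a gene with 25 counts from 14 males in 67 of the males and 1 of the females. The 2 genes seen in females alone had 10 and 11 counts here and were present in males of the other groups.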
